A study of Mus musculus with 5 samples.

Results

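The 43 genes described here carry fatty acids and cholesterol into, through and out of cells. They were chosen by symbol from the deposited count and TPM tables, which list 49315 genes, and each symbol matched 1 row. Poly(A) RNA was sequenced from mouse lung cells labelled as endothelial, all from animals infused for 28 days with angiotensin II, the peptide hormone that constricts vessels and raises blood pressure. The genotypes were wild type (WT, 3 libraries) and a knockout of TET2 limited to endothelial cells (TET2KO, 2 libraries). TET2 oxidises 5-methylcytosine in DNA. No group without angiotensin II was compared, so both genotypes share the hormone. The labels name no Cre driver, deleted exon, age, sex, strain or method of cell isolation, and do not say whether each library came from its own animal. The p-values therefore reflect only how far these 5 libraries spread, which may be partly technical.

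Fatty acids reach lung cells from lipoproteins split by lipoprotein lipase and from albumin, pass the membrane with the help of CD36, are held in the cytosol by fatty acid binding proteins and are activated to acyl-CoA. Carnitine palmitoyltransferases then bring long chains into mitochondria for beta-oxidation, or the chains are stored as esters in lipid droplets. Cholesterol is made from acetyl-CoA under the transcription factor SREBP2, is released from lysosomes by acid lipase and the NPC proteins, and leaves the cell through ABCA1 and ABCG1, which are targets of the liver X receptors. In the lung the capillary endothelium takes up fatty acids through CD36, while alveolar macrophages, which clear surfactant, depend on PPAR-gamma and express lipoprotein lipase, FABP4, FABP5 and ABCG1 strongly.

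The promoters of 4 members are shown because they stand for the routes compared: sterol synthesis (Hmgcs1 and Lss), fatty acid synthesis (Fasn) and efflux (Abca1). Each is the 150 bases that end at the RefSeq start site, 5′ to 3′ on the gene's own strand, build GRCm38.p6. Capitals mark matches on either strand to 3 motifs: TCACNCCAC, a sterol regulatory element to which SREBP proteins bind, CCAAT, the box of the factor NF-Y that acts beside SREBP, and CACGTG, an E-box. The windows lie at chr13:119690201-119690350, plus strand (Hmgcs1), chr10:76531455-76531604, plus strand (Lss), chr11:120824548-120824697, minus strand (Fasn) and chr4:53159896-53160045, minus strand (Abca1).
Hmgcs1: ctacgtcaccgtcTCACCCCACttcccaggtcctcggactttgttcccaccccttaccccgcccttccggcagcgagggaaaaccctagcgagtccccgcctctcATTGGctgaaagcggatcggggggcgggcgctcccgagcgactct
Lss: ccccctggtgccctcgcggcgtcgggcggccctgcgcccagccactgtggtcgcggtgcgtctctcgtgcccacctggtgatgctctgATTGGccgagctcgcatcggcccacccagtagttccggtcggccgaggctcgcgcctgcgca
Fasn: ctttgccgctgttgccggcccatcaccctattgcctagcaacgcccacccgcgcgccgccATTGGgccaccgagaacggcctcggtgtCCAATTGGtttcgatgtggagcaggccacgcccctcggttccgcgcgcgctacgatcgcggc
Abca1: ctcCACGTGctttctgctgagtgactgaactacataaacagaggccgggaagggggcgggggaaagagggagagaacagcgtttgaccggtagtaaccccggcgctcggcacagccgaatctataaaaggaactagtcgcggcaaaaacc
The sterol element of Hmgcs1 begins 137 bases before the start site and its CCAAT match, read on the other strand as ATTGG, 45 bases before it. Lss has 1 CCAAT match, 62 bases before the start. In Fasn the matches begin 90, 62 and 59 bases before the start, and the last 2 overlap within CCAATTGG. Abca1 has no CCAAT match and 1 E-box, 147 bases before the start.

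Windows from 250 bases before to 50 bases after the start were found in the RefSeq table for 33 of the 43 members. TCACNCCAC occurred in 1.24% of all 32851 mouse windows of that length, and among members in Hmgcs1 and Acsl1. CCAAT occurred in 37.4% of windows, or 41.1% of genes, and in 20 of the 33 members. All 5 sterol synthesis genes with a window had it (Hmgcs1, Idi1, Lss, Cyp51 and Dhcr7), as did 1 of 7 oxidation genes (Cpt1a) and neither of the efflux genes with a window (Abca1 and Apoe). CACGTG occurred in 7.15% of windows, or 8.09% of genes, and in 5 members (Insig1, Dhcr7, Abca1, Plin2 and Elovl5). A match describes letters in a window and was not linked to binding.

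Total counts ranged from 27346804 to 35440257 per library. Values of the 5 libraries are given throughout in the order WT replicates 1, 2 and 3, then TET2KO replicates 1 and 2, as CPM, read counts scaled to a common total, with the totals corrected by TMM, which sets aside genes that dominate a library. Tet2, counted over the whole gene, stood at 141, 174 and 131 CPM in WT and 139 and 162 CPM in TET2KO, with a log2 fold change of 0.02 (SE 0.19), so this count does not check the labels. The libraries were not alike within WT. WT replicate 2 stood apart, at 90.8 on a first principal component that held 57.5% of the variance, with the other libraries between -50.9 and 7.71. WT replicate 3 was placed with the TET2KO libraries in the authors' deposited comparison table: for 12175 genes with a mean normalized count of at least 100, the fold changes in that table equalled those of WT replicate 3 and both TET2KO libraries over WT replicates 1 and 2 within 0.05 for 100% of genes, against 16.3% when the groups were taken as labelled. The labels were followed here, and values without each of these libraries are given beside the results.

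No member differed between the genotypes past the threshold of an adjusted p under 0.05. All 43 were among the 18727 genes tested with edgeR's quasi-likelihood test and Benjamini-Hochberg adjustment, which called 0 genes (0%), and the lowest adjusted p was 0.875 among members and 0.778 among all genes. Before adjustment, 1065 genes had a p under 0.05 by edgeR, 1109 by limma-voom and 1167 by DESeq2, and 0 members did by edgeR. The standard error of a member's log2 fold change ran from 0.16 to 1.42, with a median of 0.43, so a gene that was not called is not shown to be unchanged. DESeq2 called 61 of 15456 genes (0.395%) at an adjusted p under 0.05 and 0 members. The log2 fold change was below 0, which is lower in TET2KO, for 37 members against 58.4% of all tested genes, and the median was -0.35 against -0.08. This direction changed without WT replicate 2: 29 of the 43 members were above 0 and the median was 0.09, with 0.00 over all genes. In that fit 7 members had an unadjusted p under 0.05 (Cd36, Fabp4, Idi1, Sqle, Scd2, Fads1 and Fads2), each with a value above 0, against 1864 of all 18453 genes tested with such a p, 1420 of them above 0, and the lowest adjusted p of a member was 0.421 by edgeR. Without WT replicate 3, 7 members were above 0, the median was -0.52, and Abcg1 alone had an unadjusted p under 0.05.

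WT replicate 2 held the highest value of 35 members, against 35.0% of all tested genes, and WT replicate 3 the lowest of 24, against 23.8%. The ratio of WT replicate 2 to the median of the other 4 libraries ran from 0.403 for Scd1 to 11.7 for Fabp5. The groups overlapped for 37 members. Both TET2KO libraries lay below all WT libraries for 5 members (Acadl, Srebf2, Abca1, Acly and Acaca), against 12.4% of all tested genes, and above them for 1 (Fads2), against 12.4%. Those counts are at or under the share over all genes and single out nothing about lipid genes. They also depended on the TMM scaling. Before it, Acadl, Srebf2 and Abca1 overlapped, and Cd36 and Scd2 were above all WT libraries in both TET2KO libraries. In TPM the same was seen, and Acaca overlapped as well.

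**Figure D1:**
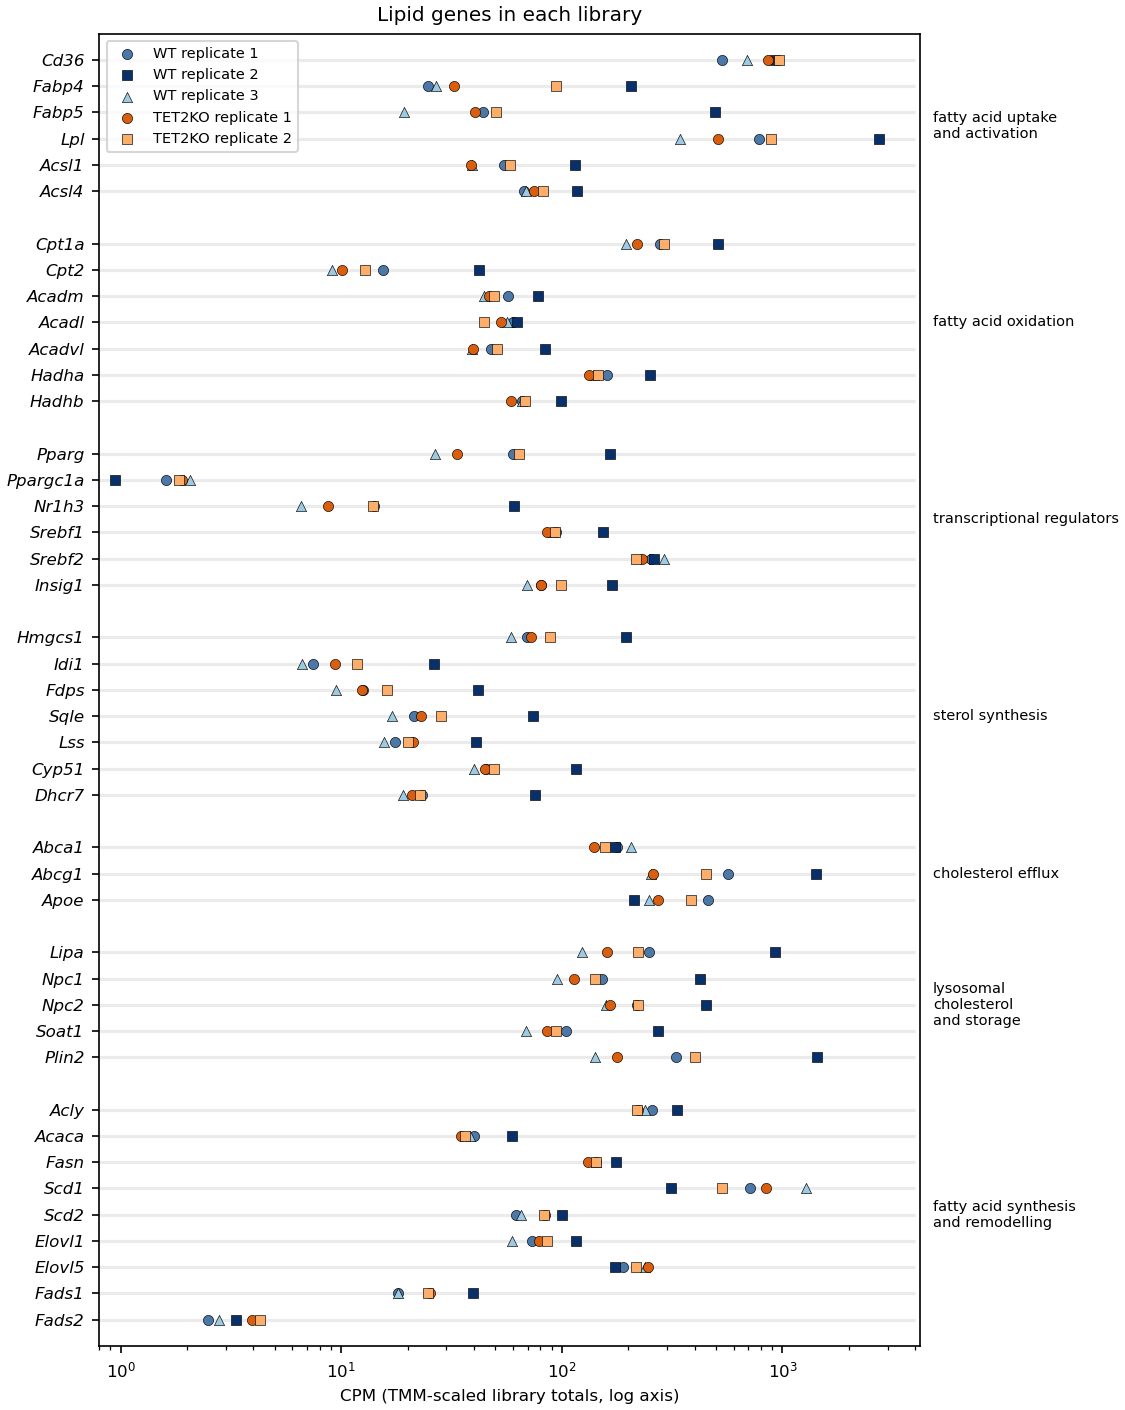
CPM of the 43 genes on a log axis, 1 point per library (blue for WT, orange for TET2KO), grouped by role. WT replicate 2, the dark squares, lies to the right of the other 4 libraries for 35 genes, most of all for Fabp5, and to their left for Scd1, Ppargc1a, Apoe and Elovl5.

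Uptake genes did not share 1 profile. Cd36 had a higher mean in TET2KO, a difference that did not pass the test, while the binding proteins and lipoprotein lipase had their highest value in WT replicate 2. When libraries were scaled on endothelial markers, Cd36 was at -0.52 on the log2 scale, with the median of all genes at -0.90. Cd36 (ENSMUSG00000002944, chromosome 5, 17781690 to 17888801, minus strand, GRCm38), the fatty acid translocase of capillary endothelium, was at 534, 927 and 687 CPM in WT and 862 and 964 CPM in TET2KO. WT replicates 1 and 3 were the lowest, and WT replicate 2 lay between the TET2KO libraries. Before TMM scaling Cd36 was higher in both TET2KO libraries, at 913 and 1025 CPM, than in any WT library, at most 774 CPM. Its means were 716 ± 198 (SD, n = 3) for WT against 913 ± 72.6 CPM (SD, n = 2) for TET2KO, which gave 0.35 (SE 0.28) as the log2 fold change (edgeR, adjusted p = 0.875). Refitted with edgeR, the value was 0.61 without WT replicate 2 (unadjusted p = 0.026, adjusted p = 0.459) and 0.35 without WT replicate 3.

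Fabp5 (ENSMUSG00000027533, chromosome 3, 10012548 to 10016607, plus strand), a fatty acid binding protein of macrophages, epidermis and capillaries, was at 43.7, 493 and 19.2 CPM in WT and 40.5 and 50.4 CPM in TET2KO. A single library, WT replicate 2, was 11.7 times the median of the others, which ranged from 19.2 to 50.4 CPM. Its log2 fold change was -2.03 (SE 1.42), the lowest of the 43, and its adjusted p by edgeR was 0.875. On the log2 scale it was 0.57 without WT replicate 2 and -2.55 without WT replicate 3. A near copy, Fabp5l2, is annotated and may share reads with it. Fabp4, the related binding protein of adipocytes, macrophages and capillary endothelium, was at 24.7, 207 and 26.8 CPM in WT and 32.6 and 93.8 CPM in TET2KO. TET2KO replicate 2 came next after WT replicate 2, with the other libraries close together. Its log2 fold change of -0.45 (SE 1.08) turned to 1.32 without WT replicate 2 (unadjusted p = 0.036, adjusted p = 0.471 by edgeR).

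Lpl, the lipase that frees fatty acids from triglyceride-rich lipoproteins, was at 780.2, 2727 and 344 CPM in WT and 510.5 and 888 CPM in TET2KO. The WT libraries spanned both TET2KO libraries, and the log2 fold change was -0.88 (SE 0.88). Acsl1, an acyl-CoA synthetase that serves storage and oxidation, was at 54.7, 115 and 38.99 CPM in WT and 38.7 and 58.4 CPM in TET2KO, with -0.52 (SE 0.50). Acsl4, the synthetase that prefers arachidonic acid, varied least of the 6 genes, at 67.1, 118 and 68.9 CPM in WT and 74.9 and 82.1 CPM in TET2KO, with -0.11 (SE 0.29). As a group the 6 had a median of -0.48 with all libraries, 0.46 without WT replicate 2, where all 6 were above 0, and -0.82 without WT replicate 3.

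All 7 oxidation genes had a log2 fold change below 0 and their highest value in WT replicate 2, and without that library they lay between -0.22 and 0.14. Acadl (ENSMUSG00000026003, chromosome 1, 66830839 to 66863277, minus strand), the long-chain acyl-CoA dehydrogenase, was at 59.99, 62.7 and 56.3 CPM in WT and 53.1 and 44.6 CPM in TET2KO. With TMM scaling both TET2KO libraries lay below all WT libraries, and WT replicate 2 was close to its group. Before that scaling Acadl overlapped, with WT replicate 2 at 52.4 CPM and TET2KO replicate 1 at 56.3 CPM. Its means were 59.7 ± 3.21 (SD, n = 3) for WT against 48.9 ± 6.03 CPM (SD, n = 2) for TET2KO, and the log2 difference was -0.29 (SE 0.16), adjusted p = 0.875 by edgeR. It was -0.22 without WT replicate 2 and -0.30 without WT replicate 3.

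Cpt1a, the outer carnitine palmitoyltransferase that sets the pace of entry into mitochondria, was at 278, 509.9 and 195 CPM in WT and 218 and 291 CPM in TET2KO. Its fold change of -0.36 (SE 0.43) on the log2 scale was 0.14 without WT replicate 2. Cpt2, the inner enzyme that restores acyl-CoA in the matrix, was at 15.4, 42.01 and 9.09 CPM in WT and 10.1 and 12.8 CPM in TET2KO. Only WT replicate 2 exceeded 15.4 CPM, and the log2 fold change of -0.96 (SE 0.66) was -0.07 without it. The medium and very long chain dehydrogenases Acadm and Acadvl and both subunits of the trifunctional protein, Hadha and Hadhb, had log2 fold changes from -0.40 to -0.28, and from -0.08 to 0.09 without WT replicate 2. Hadha was at 161, 250.5 and 140.5 CPM in WT and 132 and 146 CPM in TET2KO, with the 4 libraries other than WT replicate 2 within 132 to 161 CPM. Acadm was at 56.8, 78.3 and 44.3 CPM in WT and 46.8 and 49.5 CPM in TET2KO. The ranges over the 5 libraries were 39.1 to 84.1 CPM for Acadvl and 58.6 to 99.4 CPM for Hadhb, in each case with WT replicate 2 on top. Acadvl overlaps Dvl2, and Hadha overlaps Garem2, on the opposite strand, and with the strand setting not given their reads cannot be told apart. The median of the 7 was -0.33, and it was -0.04 without WT replicate 2 and -0.52 without WT replicate 3.

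Among the regulators, Srebf2 was the steadiest and Nr1h3 the most uneven. Srebf2 (ENSMUSG00000022463, chromosome 15, 82147181 to 82205379, plus strand) encodes SREBP2, which drives cholesterol synthesis genes when membrane sterol is low, and was at 252, 262 and 289 CPM in WT and 232 and 217 CPM in TET2KO. Both TET2KO libraries were below all WT libraries by a small margin with TMM scaling. Before it, WT replicate 2 was the lowest library, at 219 CPM. The means were 268 ± 19.02 (SD, n = 3) for WT against 224 ± 10.6 CPM (SD, n = 2) for TET2KO, and the log2 difference was -0.26 (SE 0.17), adjusted p = 0.875 by edgeR. Without WT replicate 2 it was -0.25 and without WT replicate 3 it was -0.17. The Srebf2 gene contains Mir33 on the same strand.

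Srebf1, whose product favours fatty acid synthesis, was at 94.2, 154 and 91.2 CPM in WT and 85.5 and 92.8 CPM in TET2KO, with -0.34 (SE 0.28). Rai1 overlaps it on the opposite strand. Insig1, which holds SREBP precursors in the endoplasmic reticulum and is itself an SREBP target, was at 80.3, 169.6 and 69.7 CPM in WT and 80.3 and 98.6 CPM in TET2KO, with -0.25 (SE 0.42) and 0.28 without WT replicate 2. Pparg, the nuclear receptor of fatty acid storage and of alveolar macrophage identity, was at 60.1, 165 and 26.6 CPM in WT and 33.3 and 64.02 CPM in TET2KO. The WT group held both the highest and the lowest library, so the TET2KO libraries lay inside the WT range, and the log2 fold change was -0.79 (SE 0.78).

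Nr1h3, the liver X receptor alpha, which senses oxysterols and induces efflux genes, was at 14.1, 60.9 and 6.55 CPM in WT and 8.67 and 13.9 CPM in TET2KO. Every other library was more than 4-fold below WT replicate 2. The log2 fold change of -1.27 (SE 0.96) was 0.17 without it and -1.71 without WT replicate 3. Ppargc1a, the coactivator of mitochondrial biogenesis, was present at a low level, at 1.61, 0.946 and 2.07 CPM in WT and 1.90 and 1.85 CPM in TET2KO, with 0.28 (SE 0.41). Together the 6 regulators had a median of -0.30, 0.11 without WT replicate 2 and -0.45 without WT replicate 3.

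Sterol synthesis genes gave the same profile across libraries: each of the 7 was highest in WT replicate 2 and lowest in WT replicate 3. WT replicate 2 was 2.17 to 3.45 times the median of the other 4 libraries. Log2 fold changes ran from -0.85 (Dhcr7) to -0.25 (Lss), and the groups overlapped for all 7. Without WT replicate 2 all 7 were above 0, from 0.08 to 0.62, and without WT replicate 3 all 7 were below 0, from -1.15 to -0.47. The direction of this route thus changed with the library that was left out, and no member passed the correction in either fit.

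Hmgcs1, the HMG-CoA synthase at the head of the route, was at 69.6, 195 and 58.7 CPM in WT and 72.6 and 88.6 CPM in TET2KO. Of the 5 sterol genes with a promoter window (Fdps and Sqle had none), it alone had a match to TCACNCCAC. Other forms of the sterol element were not searched for. Its log2 fold change was -0.42 (SE 0.56), 0.36 without WT replicate 2. Idi1, the isopentenyl diphosphate isomerase, was at 7.46, 26.5 and 6.61 CPM in WT and 9.36 and 11.8 CPM in TET2KO, with -0.35 (SE 0.66) and 0.62 without WT replicate 2 (unadjusted p = 0.028, edgeR adjusted p = 0.459). Sqle, the squalene epoxidase, was at 21.3, 74.3 and 16.9 CPM in WT and 23.1 and 28.2 CPM in TET2KO, with -0.55 (SE 0.68). In these 3 genes both TET2KO libraries lay above WT replicates 1 and 3 and below WT replicate 2. Fdps, the farnesyl diphosphate synthase, was at 12.5, 41.5 and 9.50 CPM in WT and 12.4 and 16.2 CPM in TET2KO, with -0.57 (SE 0.67), and TET2KO replicate 1 was level with WT replicate 1.

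Lss, which closes the sterol rings as lanosterol synthase, was at 17.5, 40.8 and 15.6 CPM in WT and 21.1 and 20.2 CPM in TET2KO, and its log2 fold change was -0.25 (SE 0.46). The annotated gene 4930483K19Rik lies over it on the other strand. Cyp51, the lanosterol demethylase, was at 45.2, 116 and 40.1 CPM in WT and 45.04 and 49.1 CPM in TET2KO, with -0.52 (SE 0.50), and overlaps Akap9 on the opposite strand. Dhcr7, the last reductase before cholesterol, was at 23.2, 75.3 and 19.1 CPM in WT and 20.9 and 22.7 CPM in TET2KO, with -0.85 (SE 0.64). In Dhcr7 the 4 libraries other than WT replicate 2 lay within 19.1 to 23.2 CPM. The median of the 7 was -0.52, 0.36 without WT replicate 2 and -0.76 without WT replicate 3.

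The efflux genes were unlike each other. Abca1 (ENSMUSG00000015243, chromosome 4, 53030787 to 53159895, minus strand), the transporter that loads cholesterol onto apolipoprotein A-I, was at 178, 174 and 205 CPM in WT and 141 and 156 CPM in TET2KO. With TMM scaling both TET2KO libraries were below all 3 WT libraries, and WT replicate 2 was close to WT replicate 1. Before that scaling Abca1 was lowest in WT replicate 2, at 145 CPM, and the groups overlapped. Its means were 186 ± 17.00 (SD, n = 3) for WT against 148 ± 11.2 CPM (SD, n = 2) for TET2KO, and its log2 fold change was -0.32 (SE 0.17), adjusted p = 0.875 by edgeR. It was -0.34 without WT replicate 2 and -0.21 without WT replicate 3. In the authors' deposited table, which places WT replicate 3 with TET2KO, it was -0.05.

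Abcg1 (ENSMUSG00000024030, chromosome 17, 31057675 to 31117988, plus strand), the transporter that passes cholesterol to high-density lipoprotein, was at 568, 1419.6 and 255 CPM in WT and 259 and 449.9 CPM in TET2KO. The groups overlapped, with WT replicate 3 and TET2KO replicate 1 nearly equal and lowest. The log2 fold change was -1.08 (SE 0.74), adjusted p = 0.875 by edgeR, -0.18 without WT replicate 2 and -1.46 without WT replicate 3. Apoe, the lipoprotein ligand secreted by macrophages, was at 459, 212 and 249.6 CPM in WT and 274 and 386 CPM in TET2KO. Here WT replicate 2 was the lowest library and WT replicate 1 the highest, and the log2 fold change was 0.11 (SE 0.39). For the 3 efflux genes the median was -0.32, -0.18 without WT replicate 2 and -0.21 without WT replicate 3.

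Lysosomal and storage genes had the lowest median of the 7 roles, -0.81, which was 0.08 without WT replicate 2 and -1.15 without WT replicate 3. All 5 genes were highest in WT replicate 2 and lowest in WT replicate 3. Lipa, the acid lipase that frees cholesterol from esters in lysosomes, was at 249, 926 and 123 CPM in WT and 161 and 221 CPM in TET2KO, with -1.18 (SE 0.86). Plin2, the coat protein of lipid droplets, was at 329, 1436 and 141 CPM in WT and 178 and 403 CPM in TET2KO. WT replicate 2 was 10.2-fold above WT replicate 3, both labelled WT, and the log2 fold change was -1.13 (SE 1.02).

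Npc1, the membrane protein that passes cholesterol out of the lysosome, was at 152, 424 and 94.7 CPM in WT and 113 and 141 CPM in TET2KO, with -0.81 (SE 0.65). Npc2, its soluble partner, was at 219, 449.7 and 159 CPM in WT and 165 and 220.4 CPM in TET2KO, with -0.52 (SE 0.47). Soat1, which esterifies cholesterol for storage, was at 104, 272 and 68.9 CPM in WT and 85.8 and 94.1 CPM in TET2KO, with -0.72 (SE 0.60). In each of these 3 genes the TET2KO libraries lay between WT replicate 3 and WT replicate 2. Without WT replicate 2 all 5 genes were above 0, from 0.06 to 0.35.

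Fatty acid synthesis and remodelling genes had a median near 0 and held the member with the highest log2 fold change, Fads2. Fads2 (ENSMUSG00000024665, chromosome 19, 10062765 to 10101746, minus strand) encodes the delta-6 desaturase that starts the making of long polyunsaturated fatty acids. With TMM scaling it was the only member with both TET2KO libraries above all WT libraries. Before TMM scaling, and in TPM, the same held for Cd36 and Scd2 as well. Fads2 had a log2 fold change of -0.34 when libraries were scaled on endothelial markers, with the median of all genes at -0.90. It was a weakly expressed gene, at 2.49, 3.35 and 2.80 CPM in WT and 3.93 and 4.29 CPM in TET2KO, or raw counts of 71, 99 and 88 in WT and 130 and 137 in TET2KO. The means were 2.88 ± 0.435 (SD, n = 3) for WT against 4.11 ± 0.257 CPM (SD, n = 2) for TET2KO, and the log2 fold change was 0.51 (SE 0.27), adjusted p = 0.875 by edgeR. Its neighbour Fads1, the delta-5 desaturase, was at 18.1, 39.6 and 18.02 CPM in WT and 25.2 and 24.7 CPM in TET2KO, with -0.02 (SE 0.40). Without WT replicate 2 Fads1 was at 0.50 (unadjusted p = 0.011, edgeR adjusted p = 0.421), the lowest p of the 43 in that fit.

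Acly, which makes cytosolic acetyl-CoA from citrate, was at 256, 332 and 238 CPM in WT and 221 and 220.0 CPM in TET2KO. Acaca, the acetyl-CoA carboxylase of synthesis, was at 40.1, 59.3 and 38.4 CPM in WT and 34.9 and 36.5 CPM in TET2KO. In both, the TET2KO libraries were just below all WT libraries, of which replicate 3 was the lowest, while in TPM the groups overlapped for Acaca. The log2 fold changes of Acly and Acaca were -0.32 (SE 0.21) and -0.36 (SE 0.24). Fasn, the fatty acid synthase, was nearly level, at 143, 175 and 143 CPM in WT and 131 and 143 CPM in TET2KO, with -0.17 (SE 0.18).

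Scd1, the stearoyl-CoA desaturase that makes oleate, was at 714, 312 and 1277 CPM in WT and 838 and 534 CPM in TET2KO. WT replicate 3 was the highest and WT replicate 2 the lowest, an order it shared with Ppargc1a, so that the WT libraries spanned the TET2KO libraries. Its log2 fold change of -0.16 (SE 0.59) was -0.52 without WT replicate 2 and 0.45 without WT replicate 3. Scd2, its isozyme, was at 61.99, 101 and 65.2 CPM in WT and 83.6 and 83.2 CPM in TET2KO, with 0.13 (SE 0.25), and 0.42 without WT replicate 2 (unadjusted p = 0.013, edgeR adjusted p = 0.428). The elongases Elovl1, which acts on saturated chains, and Elovl5, on polyunsaturated chains, had log2 fold changes of -0.02 (SE 0.30) and 0.21 (SE 0.20). Elovl5 was at 188, 175 and 238 CPM in WT and 245 and 217 CPM in TET2KO, lowest in WT replicate 2. Elovl1 was at 73.6, 116 and 59.6 CPM in WT and 78.4 and 85.5 CPM in TET2KO, highest in WT replicate 2, and overlaps Cdc20 on the opposite strand. The median of the 9 genes was -0.02, 0.14 without WT replicate 2 and -0.18 without WT replicate 3. It was also above 0 with library totals (0.16), upper quartile factors (0.09), limma-voom (0.04) and no filter (0.03), and 0.25 on log2(TPM + 1), so it had no settled direction. Relative to the median of all genes it was 0.06, with 0.10 for library totals and 0.12 on log2(TPM + 1).

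**Figure D2:**
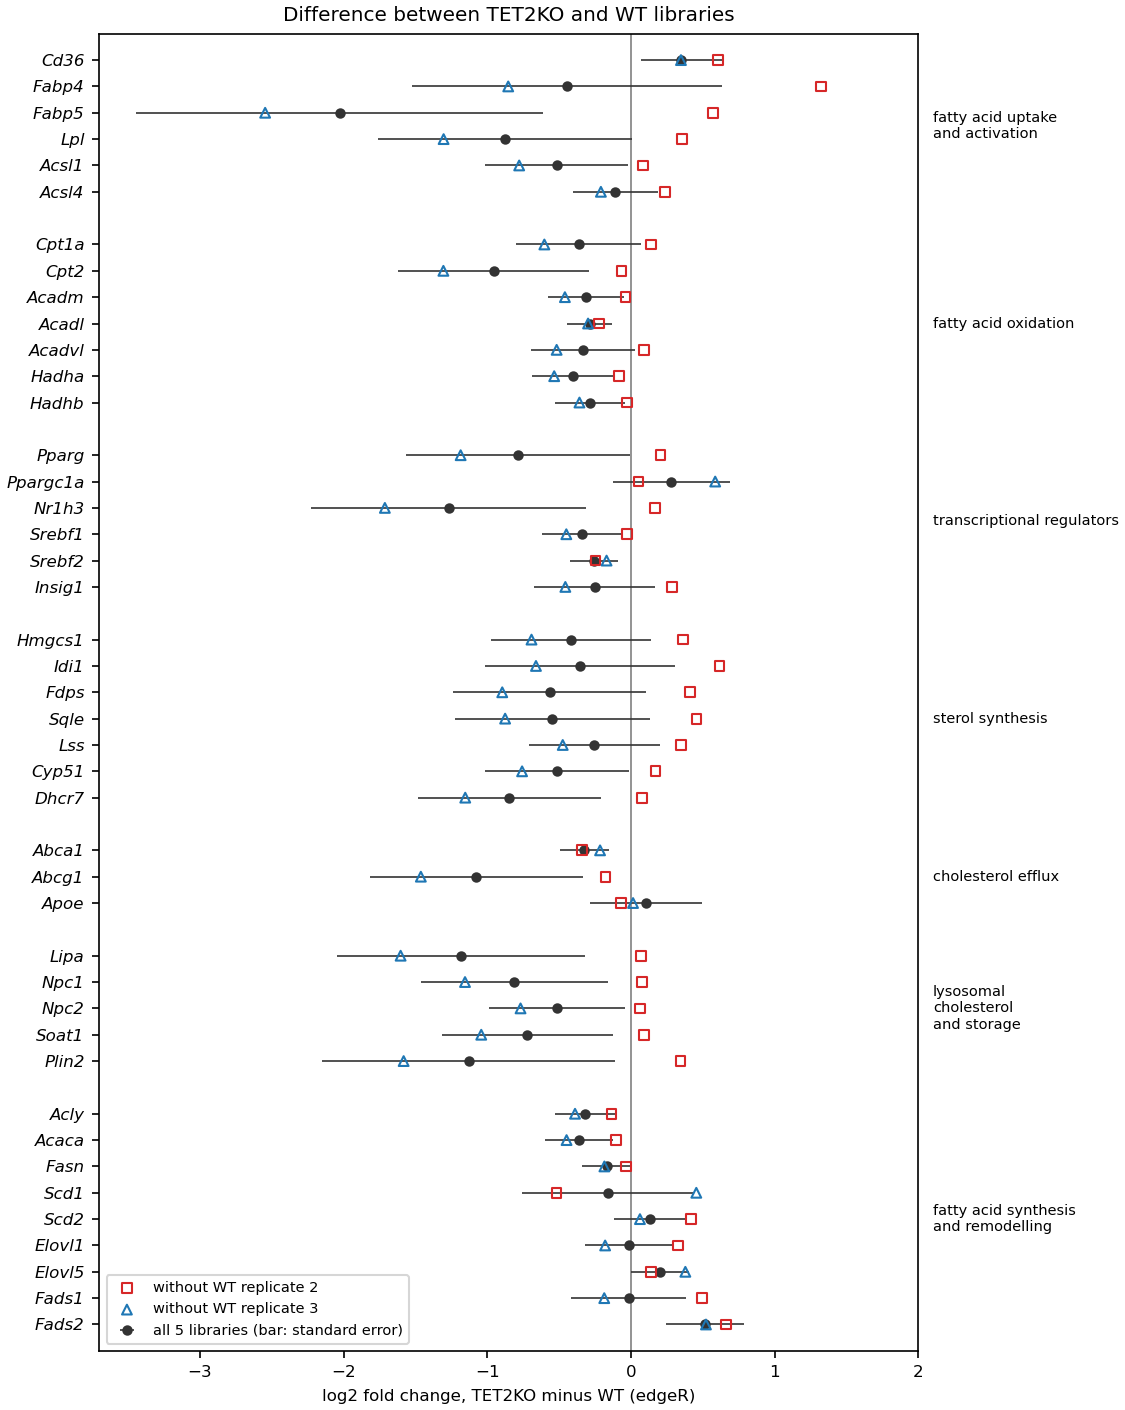
Log2 fold change, TET2KO minus WT, of each of the 43 genes by edgeR: with all 5 libraries (filled points, bars 1 standard error), without WT replicate 2 (red squares) and without WT replicate 3 (blue triangles). Red squares lie to the right of the points for most uptake, sterol and storage genes, and of 0 for 29 of 43 genes.

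Uptake, oxidation, sterol synthesis and efflux were then set side by side. Their medians were -0.48, -0.33, -0.52 and -0.32 with all libraries. The level of a role in a library was taken as the median deviation of its genes from the 5-library mean. Among libraries of the same genotype, the standard deviation of that level was 0.98 for uptake, 0.39 for oxidation, 0.84 for sterol synthesis and 0.24 for efflux (over 3 genes). That level is another measure than a median fold change, so no role was judged against it. Without WT replicate 2 the medians were 0.46, -0.04, 0.36 and -0.18, so uptake and sterol synthesis changed sign. Oxidation kept its sign but lay near 0, with 2 of its 7 genes above 0. Efflux also kept its sign, over only 3 genes. The differences between roles were not tested. Relative to the median of all genes, the 4 medians were -0.41, -0.26, -0.44 and -0.25. With library totals, which moved the median of all genes by 0.14, they were -0.30, -0.21, -0.37 and -0.25 on that relative scale, and on log2(TPM + 1), which moved it by 0.21, they were -0.14, -0.19, -0.16 and -0.24. Relative to the mean of the 5 libraries, the median uptake gene lay at -0.37, 1.40 and -0.75 in WT and -0.56 and 0.10 in TET2KO on the log2 CPM scale, and the median sterol gene at -0.33, 1.29 and -0.58 in WT and -0.27 and 0.01 in TET2KO. WT replicate 2 was the high library in both, and WT replicate 3 the low one. The median efflux gene lay at 0.26, 0.04 and -0.28 in WT and -0.27 and -0.08 in TET2KO, with WT replicate 1 the highest.

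Of the 13 marker lists, that of alveolar macrophages had the profile of most lipid genes by its median marker, high in WT replicate 2 and low in WT replicate 3. By summed CPM before TMM scaling other lists had it too. Mesothelium summed to 167, 355 and 56.4 CPM in WT and 93.3 and 251 CPM in TET2KO. Pericytes and smooth muscle summed to 18.3, 25.7 and 14.2 CPM in WT and 22.5 and 24.1 CPM in TET2KO. In each of these lists 1 marker was highest in WT replicate 2. Of 15 alveolar macrophage markers 14 were matched and tested, and 13 of them were highest in WT replicate 2 and 13 lowest in WT replicate 3. Their summed level was 5619, 19749 and 2012 CPM in WT and 2859.9 and 5983 CPM in TET2KO, before TMM scaling, and their median log2 fold change was -0.94, or 0.24 without WT replicate 2. The 16 endothelial markers summed to 4093, 2653 and 5302 CPM in WT and 7401 and 7643 CPM in TET2KO, lowest in WT replicate 2, with both TET2KO libraries above all WT libraries for 16 of 16, against 12.4% of all tested genes. Some markers of other resident cells were also higher in both TET2KO libraries than in all WT libraries, against the same 12.4%. They were 7 of 8 for alveolar type 1 cells (median log2 fold change 1.03), 5 of 6 for mesothelium (1.64) and 4 of 9 for fibroblasts (0.69). The count was 3 of 7 for pericytes and smooth muscle (0.39), 1 of 7 for airway epithelium (1.14) and 0 of 10 for alveolar type 2 cells (0.70). By edgeR 0 genes of any list passed the adjusted threshold. DESeq2 called 3 mesothelial markers and 1 airway marker, against 0.395% of all genes. The 13 markers of interstitial macrophages and monocytes summed to 868, 1419 and 432 CPM in WT and 604 and 905 CPM in TET2KO, but only 6 of the 13 were highest in WT replicate 2, and the median marker lay at 0.24, -0.35 and -0.56 in WT and -0.03 and 0.45 in TET2KO on the log2 CPM scale, relative to the mean of the libraries. Cd68, singled out after its values were seen, gave 729 of the 1419 CPM in WT replicate 2. Lymphocyte markers, lowest in WT replicate 2, summed to 3488, 875 and 4278 CPM in WT and 3068 and 1933 CPM in TET2KO. Alveolar type 2 markers summed to 1245, 494 and 559 CPM in WT and 953 and 1259.6 CPM in TET2KO. Their sum was lowest in WT replicate 2, but 8 of the 10 markers were lowest in WT replicate 3. The median type 2 marker lay at 0.68, -0.56 and -1.14 in WT and 0.19 and 0.87 in TET2KO on the log2 CPM scale. Adipocyte markers were nearly absent, with a summed level of 1.00 to 2.30 CPM over the libraries, and Adipoq, Lep and Cidea were at 0 in at least 1 library. The labelled cell type was thus present in every library together with leukocytes and epithelium. The part of these cells in the levels of the lipid genes was not tested, and in bulk RNA fewer cells of a type and less RNA per cell cannot be told apart. With libraries scaled on the endothelial markers instead of TMM, which moved the median of all genes by -0.83, 0 of the 43 members were above 0, against 7.13% of all tested genes. The role medians ran from -1.80 to -0.93, or -0.90 to -0.02 relative to all genes.

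**Figure D3:**
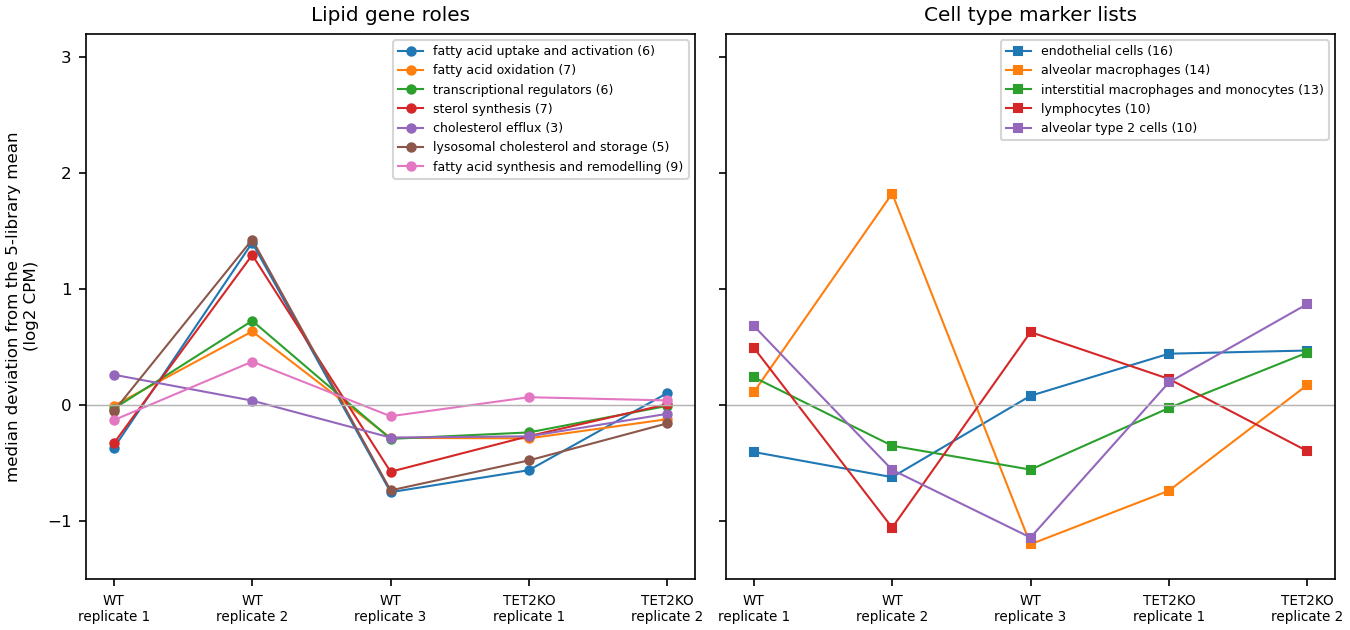
Median deviation from the 5-library mean, in log2 CPM, for the 7 roles (left) and for 5 cell type marker lists (right), with the number of genes in brackets; lines only link the points of 1 list. Uptake, sterol and storage genes and alveolar macrophage markers all peak in WT replicate 2 and have their lowest point in WT replicate 3, while endothelial markers are lowest in WT replicate 2.

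Other genes of the same pathways were taken from 6 lists with 104 genes. Of these, 101 were tested (Ppara, Elovl3 and Scd3 were too low), 0 passed the adjusted threshold by edgeR, 26 were above 0 and 75 below, and the median was -0.23. Without WT replicate 2, 76 were above 0 and the median was 0.13. For 68 of them WT replicate 2 was the highest library. TET2KO was above WT without overlap for 11 of them and below for 3, against 12.4% of all tested genes in each direction, where the 43 members had 1 above and 5 below. By list the medians were -0.08 for uptake and transport, -0.34 for oxidation, -0.21 for sterol synthesis, -0.25 for efflux and liver X receptor targets, -0.36 for storage and lipolysis and -0.05 for fatty acid synthesis. Those for uptake and sterol synthesis were nearer to the -0.08 of all genes than the -0.48 and -0.52 of the members of these roles.

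Gpihbp1, the capillary protein that carries lipoprotein lipase to the vessel lumen, had the smallest p of these, at 49.1, 40.7 and 60.9 CPM in WT and 90.6 and 75.4 CPM in TET2KO. Both TET2KO libraries were above all WT libraries, and the log2 fold change was 0.72 (SE 0.22), unadjusted p = 0.0177 and adjusted p = 0.778 by edgeR. Gpihbp1 is also in the capillary marker list, whose 10 genes were all above 0. When libraries were scaled on endothelial markers, 3 of the 10 were above 0, against 7.13% of all tested genes. Thrsp, a regulator of lipogenesis, was at 0.315, 0.304 and 0.572 CPM in WT and 0.816 and 0.940 CPM in TET2KO, under 1 CPM in every library, with 1.13 (SE 0.44). Vldlr, a receptor of very low density lipoprotein, was at 1.33, 0.642 and 1.46 CPM in WT and 2.05 and 2.63 CPM in TET2KO, with 1.03 (SE 0.43), and Fabp3, the muscle binding protein, at 0.420, 0.203 and 0.286 CPM in WT and 0.544 and 0.720 CPM in TET2KO, with 1.05 (SE 0.46).

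Of the other oxidation genes, the smallest p belonged to Cpt1c, the brain isoform, with 0.60 (SE 0.36), to Acads, the short-chain dehydrogenase, with -0.84 (SE 0.52), and to Crat, carnitine acetyltransferase, with -0.87 (SE 0.62). In sterol synthesis they were Scap, the escort of SREBP, with -0.23 (SE 0.14), Ebp, a sterol isomerase, with -0.47 (SE 0.37), and Mvd, a mevalonate enzyme, with -0.67 (SE 0.65). Among efflux genes they were Apoc1, an apolipoprotein, with -1.06 (SE 0.45), Pltp, the phospholipid transfer protein, with 0.43 (SE 0.21), and Rxrb, a partner of nuclear receptors, with -0.29 (SE 0.15). Pltp was at 242, 299 and 340.4 CPM in WT and 369.8 and 419.8 CPM in TET2KO. With TMM scaling it was thus higher in both TET2KO libraries than in any WT library, the opposite order to Abca1. With scaling on endothelial markers, 0 of the 12 genes in this efflux list were above 0, against 7.13% of all tested genes. That count therefore singles out nothing about efflux genes. In storage they were Lipe, hormone-sensitive lipase, with 0.48 (SE 0.21), Gpam, which starts glycerolipid synthesis, with 0.29 (SE 0.18), and Plin3, a droplet coat protein, with -0.997 (SE 0.76). In fatty acid synthesis Acacb, the mitochondrial acetyl-CoA carboxylase whose malonyl-CoA restrains Cpt1, had 0.66 (SE 0.29) and Slc25a1, the citrate carrier, -0.56 (SE 0.45). None of these passed the correction.

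Isozymes were compared per length, in deposited TPM, within each library. Cpt1a made up 98.6% to 99.5% of the carnitine palmitoyltransferase 1 transcripts in every library. Of stearoyl-CoA desaturase TPM, Scd1 made up 92.8%, 77.7% and 95.6% in WT and 91.8% and 87.7% in TET2KO, with the lowest share in WT replicate 2. Of liver X receptor TPM, Nr1h3 made up 10.5%, 34.6% and 4.61% in WT and 6.43% and 11.2% in TET2KO, the rest being Nr1h2, the widely expressed liver X receptor beta. The share was highest in WT replicate 2. Among long-chain acyl-CoA synthetases the largest share was that of Acsl5, 58.2%, 52.5% and 53.9% in WT and 56.1% and 54.5% in TET2KO. Of acetyl-CoA carboxylase TPM, Acacb made up 34.4%, 37.2% and 45.8% in WT and 52.7% and 59.8% in TET2KO, highest in the TET2KO libraries without overlap. Its level was 4.31, 5.41 and 6.45 TPM in WT and 8.33 and 11.6 TPM in TET2KO, and that of Acaca 8.21, 9.14 and 7.63 TPM in WT and 7.47 and 7.80 TPM in TET2KO. This share was singled out after its values were seen and has no test.

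**Figure D4:**
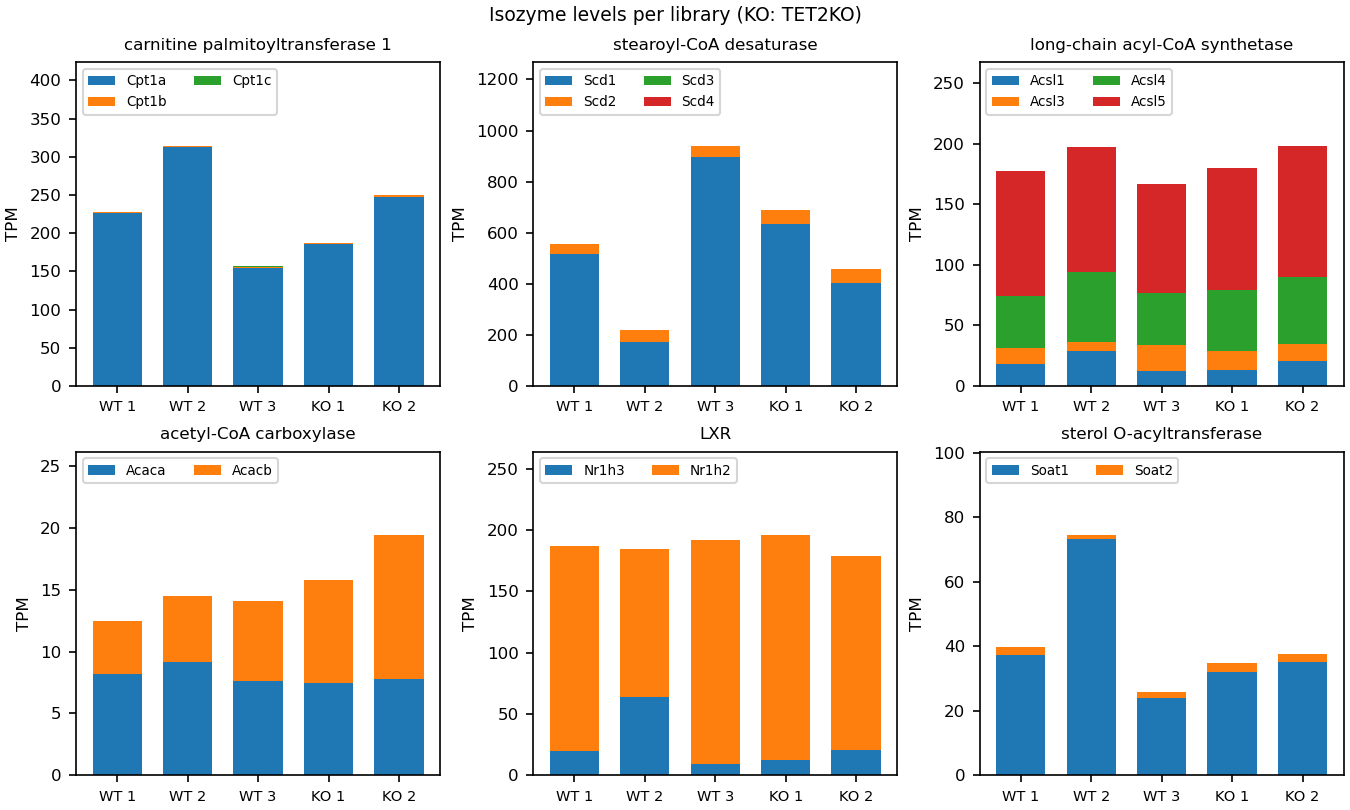
Stacked TPM of the isozymes of 6 enzyme or receptor families in each library (WT 1 to 3, KO 1 and 2 for TET2KO), each panel with its own axis from 0. Cpt1a and Soat1 supply nearly all of their family in every library, Scd1 is lowest in WT replicate 2, and the Acacb part of acetyl-CoA carboxylase is largest in the TET2KO libraries.

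The authors' deposited table gave an adjusted p to 13826 genes, and 299 of these were under 0.05 (2.16%). In the authors' deposited table (DESeq2 is the test tool that the processing notes name) 3 members were: Fabp5 (log2 fold change -2.85, adjusted p = 0.028), Abcg1 (-1.61, 0.038) and Lipa (-1.79, 0.049). These values set WT replicate 3 and both TET2KO libraries against WT replicates 1 and 2. With the libraries grouped as labelled, DESeq2 gave adjusted p = 0.866 for Fabp5, 0.990 for Abcg1 and 0.990 for Lipa, and edgeR 0.875 for each. For all 3 genes WT replicate 3 was below both TET2KO libraries. By role the medians in the authors' deposited table were -1.02 for uptake, -0.54 for oxidation, -0.86 for sterol synthesis, -0.12 for efflux and -1.29 for storage. Both comparisons use the same 5 libraries, so their values are set side by side and not counted as separate support.

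**Figure D5:**
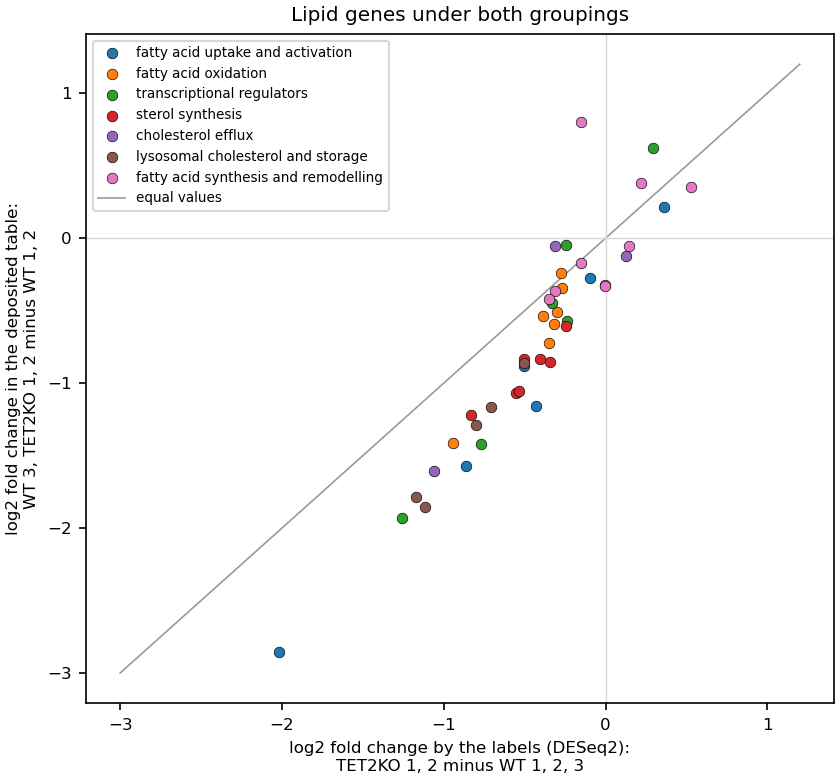
Each of the 43 genes as 1 point: log2 fold change by DESeq2 with the libraries grouped as labelled (x axis) against that of the authors' deposited table, which places WT replicate 3 with TET2KO (y axis); the grey line marks equal values. Most points lie under the line, the lowest being Fabp5, and Scd1 is the point farthest above it.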

How the data were processed

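Poly(A) RNA-seq of 5 libraries was used. The submitters' processing notes name STAR 2.5.2b, Trimmomatic 0.36, Subread 1.5.2 with featureCounts, DESeq2 without a version, and the build GRCm38. The strand setting is not given in the sources used here. The deposited counts are whole-number read counts per Ensembl gene. The deposited TPM values are scaled by gene length and library total, with no TMM correction. Per the file headers, the authors' comparison table holds each library's normalized signal (counts divided by a size factor), a log2 fold change, and a p-value before and after adjustment, and it lists 18019 genes.

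Counts were tested with edgeR 4.0.16 in R 4.3.3 (filterByExpr, TMM, quasi-likelihood F test, genotype as the only term) over 18727 genes, with Benjamini-Hochberg adjustment and a threshold of 0.05. Fold changes are TET2KO over WT, and standard errors were derived from the log2 fold change and the square root of F. Log2 CPM used a prior count of 2. Rows without a gene symbol (174) stayed in the fit. Alternatives were DESeq2 1.42.0, limma-voom 3.58.1, RLE and upper quartile factors, library totals, scaling on endothelial markers, other filters, log2(TPM + 1) and log2(TPM + 0.1), the replicate number as a block, and each library left out. The edgeR test was checked on simulated counts, where it missed the smaller of the changes put in, found most of the larger ones and made more false calls than the threshold implies.

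The 43 genes, the pathway and marker lists and the alternatives were chosen with earlier results of these data known, so lists are described by counts and medians and have no test. All 43 members are named, and the 3 genes of smallest p from each other pathway list. Siglecf had no row under that symbol. Gene positions are from GENCODE, and promoters from RefSeq, both of build GRCm38. Protein sequences were not used here.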

Additional observations from a re-analysis of the deposited data

How the results depend on the processing

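Under the 16 other settings 0 members were called. DESeq2 called 61 genes, and each of the other settings called 0. The direction of single members was less firm. DESeq2, RLE factors and leaving out WT replicate 1 turned the sign of 0 members, and leaving out WT replicate 2 turned 25. With library totals, which moved the median of all genes by 0.14 and put 58.5% of genes above 0 in place of 41.6%, the log2 fold changes that turned were 0.069 for Acsl4, 0.16 for Elovl1 and 0.18 for Fads1. With upper quartile factors they were 0.0014 for Acsl4, 0.092 for Elovl1 and 0.10 for Fads1, with limma-voom 0.099 for Fabp4, 0.025 for Scd1, 0.038 for Elovl1 and 0.090 for Fads1, with no filter 0.029 for Elovl1 and 0.030 for Fads1 and with at least 1 CPM in 2 libraries 0.00020 for Elovl1 and 0.0013 for Fads1.

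On log2(TPM + 0.1), where the median of all genes moved by 0.24, they were 0.31 for Fabp4, 0.15 for Acsl4, 0.069 for Insig1, 0.0035 for Hmgcs1, 0.15 for Idi1, 0.096 for Lss, 0.052 for Fasn, 0.24 for Scd1, 0.25 for Elovl1 and 0.30 for Fads1, and on log2(TPM + 1), where it moved by 0.21, 0.30 for Fabp4, 0.15 for Acsl4, 0.068 for Insig1, 0.0024 for Hmgcs1, 0.13 for Idi1, 0.079 for Lss, 0.051 for Fasn, 0.23 for Scd1, 0.25 for Elovl1 and 0.29 for Fads1. The median of the fatty acid synthesis genes was 0.25 on both scales. Scaling on endothelial markers gave -0.52 for Cd36, -0.48 for Ppargc1a, -0.73 for Apoe, -0.75 for Scd2, -0.60 for Elovl5 and -0.34 for Fads2, and gave role medians of -1.48, -1.25, -1.21, -1.47, -1.15, -1.80 and -0.93 in the order used above, uptake first. That scaling moved the median of all genes by -0.83, to -0.90.

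With each library left out in turn, the role medians ranged from -1.09 to 0.46 for fatty acid uptake and activation, -0.52 to -0.04 for fatty acid oxidation, -0.45 to 0.11 for transcriptional regulators, -0.76 to 0.36 for sterol synthesis, -0.40 to -0.18 for cholesterol efflux, -1.15 to 0.08 for lysosomal cholesterol and storage, -0.21 to 0.14 for fatty acid synthesis and remodelling. The members that turned in at least 1 of these fits ranged, on the log2 scale, as follows: Fabp4 -1.40 to 1.32, Fabp5 -2.55 to 0.57, Lpl -1.33 to 0.35, Acsl1 -0.84 to 0.083, Acsl4 -0.25 to 0.23, Cpt1a -0.60 to 0.14, Acadvl -0.53 to 0.090, Pparg -1.33 to 0.20, Nr1h3 -1.71 to 0.17, Insig1 -0.46 to 0.28, Hmgcs1 -0.69 to 0.36, Idi1 -0.66 to 0.62, Fdps -0.90 to 0.41, Sqle -0.88 to 0.46, Lss -0.47 to 0.35, Cyp51 -0.76 to 0.17, Dhcr7 -1.15 to 0.076, Apoe -0.16 to 0.52, Lipa -1.60 to 0.072, Npc1 -1.15 to 0.079, Npc2 -0.77 to 0.061, Soat1 -1.04 to 0.088, Plin2 -1.84 to 0.35, Scd1 -0.53 to 0.45, Elovl1 -0.18 to 0.33, Fads1 -0.21 to 0.50. Where 1 TET2KO library was left, it was assumed to vary like the WT libraries. The cause of these changes was not tested.

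With the replicate number as a replicate block, edgeR called 0 genes (lowest adjusted p 0.124), 14 members had an unadjusted p under 0.05, as had 2914 of all 18727 genes against 1065 without the block, and Scd1 turned to 0.50. The numbers are not known to pair libraries: only 2 pairs exist, with a correlation of deviations of 0.437 that is the same for both by construction. Counting error weighed most on the members with the fewest reads, Ppargc1a, with 28 to 65 counts per library, and Fads2, with 71 to 137. For the rest the spread between libraries, a coefficient of variation of 0.339 over all genes, was the limit.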

Other observations

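The 43 genes together reached a summed level of 5378, 7926 and 4443 TPM in WT and 4897 and 5875 TPM in TET2KO. Storage and lysosomal genes went from 497 TPM in WT replicate 3 to 2439 TPM in WT replicate 2. The sum of the fatty acid synthesis genes had the reverse order, with 1471 TPM in WT replicate 3 and 714 TPM in WT replicate 2. Scd1 alone was at 897 and 170 TPM in these libraries, while 6 of the 9 genes were highest in WT replicate 2 by CPM.

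Ratios between members of 1 role, in TPM, varied widely within WT. Abcg1 over Abca1 was 8.12, 20.8 and 3.16 in WT and 4.71 and 7.33 in TET2KO, Scd1 over Scd2 was 12.99, 3.50 and 22.1 in WT and 11.3 and 7.24 in TET2KO, and Fabp5 over Fabp4 was 2.22, 3.00 and 0.900 in WT and 1.57 and 0.676 in TET2KO. Srebf2 over Srebf1 was 3.03, 1.93 and 3.58 in WT and 3.06 and 2.63 in TET2KO, and Elovl5 over Elovl1 was 1.98, 1.17 and 3.09 in WT and 2.41 and 1.97 in TET2KO. Acsl1 over Acsl4 was 0.421, 0.502 and 0.292 in WT and 0.266 and 0.366 in TET2KO. In each of these the WT libraries spanned both TET2KO libraries, with 2 exceptions. Fabp5 over Fabp4 was lowest in TET2KO replicate 2, and Acsl1 over Acsl4 in TET2KO replicate 1. Cd36 was the most abundant transcript of the uptake role in every library but WT replicate 2, where Lpl, at 685 TPM, was above Cd36, at 680.1 TPM. These values were singled out after they were seen and have no test.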
